A study of Mus musculus with 12 samples.

Results

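The 10 genes described here are the NF-kB subunit genes Rel, Rela, Relb, Nfkb1 and Nfkb2 and the inhibitor and feedback genes Nfkbia, Nfkbie, Nfkbiz, Tnfaip3 and Traf1. They were chosen by symbol from a table of 21671 named mouse genes, each has 1 row in that table, and all 10 passed the filter on low counts. The 12 RNA-seq libraries come from splenic B cells, B220+ and CD43- at isolation and dye-labelled with CFSE or CTV, that were transferred into uMT hosts, mice that make no mature B cells of their own. Hosts received LPS (lipopolysaccharide), and on day 3 the transferred cells were sorted by dye dilution into Div0, Div1, Div3 and Div5 cells, named for the number of divisions, and into Div8neg (CD138-) and Div8pos (CD138+) cells, both after 8 or more divisions. CD138 marks plasmablasts, the antibody-secreting cells. Each of the 6 groups has 2 libraries, from hosts 196 and 197, and each library comes from 40000 sorted cells with synthetic ERCC spike-in RNAs added before extraction. The labels give the samples as female, 8 weeks old and B6.SJL-Ptprca Pepcb/BoyJ, while the design text calls the donors naive C57/BL6J mice. All 6 groups, Div0 included, come from LPS-challenged hosts, so Div0 cells are undivided cells of challenged hosts, and no unchallenged group was analysed here.

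NF-kB transcription factors are dimers of the proteins encoded by the 5 subunit genes. RelA, c-Rel (from Rel) and RelB carry transactivation domains, whereas p105 (from Nfkb1) and p100 (from Nfkb2) are precursors that are processed to the DNA-binding subunits p50 and p52 and that, unprocessed, hold other subunits in the cytoplasm. The inhibitors IkB-alpha (Nfkbia) and IkB-epsilon (Nfkbie) bind the dimers, are degraded after receptors such as TLR4 activate the IKK kinases, and are themselves NF-kB target genes, which makes them negative feedback. The ubiquitin-editing enzyme A20 (Tnfaip3) limits signalling upstream of IKK, the nuclear protein IkB-zeta (Nfkbiz) works with NF-kB at a subset of genes, and Traf1 encodes an adaptor of TNF receptor family members. In B cells c-Rel and RelA are known for their part in growth, survival and the change towards antibody secretion.

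A library had between 11541406 and 14961666 counts over genes, with another 113723 to 683173 over spike-ins, and total mRNA per cell, as the authors computed it from the spike-ins, lay between 27359 and 173821 molecules and was highest in Div8pos. Both a relative and a per-cell scale are therefore used. Counts per 1000000 (CPM, scaled with TMM factors) measure a gene relative to all genes, and mRNAs per cell measure its molecules in a cell and are per length, so that genes can be compared with each other. The populations sorted by CD138 differed in their marker transcripts. No transcript was used to check the groups sorted by dye dilution alone. Sdc1, which encodes CD138, had 320 ± 15.3 CPM in Div8pos and 4.72 ± 1.65 CPM in Div8neg (SD, n = 2 each), and the B-cell gene Pax5 had 9.47 ± 0.185 CPM in Div8pos and 237 ± 6.81 CPM in Div8neg. Summed CPM of the T-cell marker list (without TMM factors, as for all marker sums) lay at 1.97 to 2.21 in Div8pos and 42.9 to 45.2 in Div0, mostly Lck, with each Cd3 gene below 1 CPM in every group's mean. These are bulk libraries, in which fewer cells of a type and less RNA per cell cannot be told apart.

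The sequences just before the transcription start show where 5 of the genes carry the letters that NF-kB dimers are known to bind. A promoter window of 250 bases before to 50 bases after the start was matched by symbol in RefSeq (GRCm38.p6) for 7 of the 10 genes, and it was searched on both strands for the 10-letter kappaB consensus. At least 1 window held a match in Tnfaip3, Rel, Nfkbia, Nfkbie and Nfkb2, and the windows of Traf1 and Rela did not hold these letters. Of all 32851 windows in the RefSeq table, 8.46% held a match, as did at least 1 window of 9.55% of the 27025 genes with a window. No promoter is shown for Relb, Nfkb1 and Nfkbiz. The 150 bases before the start are printed 5′ to 3′ on the strand of the gene, with each match in capitals, where overlapping matches run together. They are Tnfaip3 chr10:19015411-19015560 (minus strand), Rel chr11:23770970-23771119 (minus strand), Nfkbia chr12:55492648-55492797 (minus strand), Nfkbie chr17:45555550-45555699 (plus strand) and Nfkb2 chr19:46304587-46304736 (plus strand, the first of 3 starts).
Tnfaip3: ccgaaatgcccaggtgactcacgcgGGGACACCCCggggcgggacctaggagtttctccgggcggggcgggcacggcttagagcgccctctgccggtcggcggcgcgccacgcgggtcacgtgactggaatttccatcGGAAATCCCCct
Rel: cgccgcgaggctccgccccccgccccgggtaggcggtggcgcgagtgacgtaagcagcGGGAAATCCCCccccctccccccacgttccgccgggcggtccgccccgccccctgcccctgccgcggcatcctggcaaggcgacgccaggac
Nfkbia: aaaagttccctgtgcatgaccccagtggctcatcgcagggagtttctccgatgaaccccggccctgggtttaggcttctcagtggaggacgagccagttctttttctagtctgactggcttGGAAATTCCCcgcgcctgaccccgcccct
Nfkbie: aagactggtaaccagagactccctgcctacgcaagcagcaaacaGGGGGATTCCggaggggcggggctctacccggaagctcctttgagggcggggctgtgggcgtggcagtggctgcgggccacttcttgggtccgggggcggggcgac
Nfkb2: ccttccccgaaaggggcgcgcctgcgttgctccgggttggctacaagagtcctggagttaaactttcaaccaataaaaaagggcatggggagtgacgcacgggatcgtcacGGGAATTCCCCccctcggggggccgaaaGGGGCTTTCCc
Counted from the start, with -1 as the last base before it, Tnfaip3 holds 2 such stretches, from -125 to -116 and from -12 to -3. The stretch of Nfkbia ends at -20, that of Rel at -82 and that of Nfkbie at -97. A match describes the letters only, and binding was not measured here.

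Across the 6 groups the subunit mRNAs per cell took different courses: Rela was highest in Div8pos, Nfkb1 in Div8neg, and Rel had its lowest level of any group in Div8pos. Rel (c-Rel) had 2.54 and 2.74 mRNAs per cell in Div0, 3.82 and 4.86 in Div1, 3.32 and 3.68 in Div3, 4.06 and 3.32 in Div5, 3.40 and 3.83 in Div8neg, and 0.917 and 1.23 in Div8pos, with host 196 first in each pair. Both Div8pos libraries lay below every other library, and the 4 groups between Div1 and Div8neg overlapped in part. Rela had 5.13 and 6.42 mRNAs per cell in Div0, 6.88 and 10.3 in Div1, 6.63 and 9.02 in Div3, 10.1 and 9.23 in Div5, 11.4 and 12.4 in Div8neg, and 14.9 and 12.7 in Div8pos. Its Div8pos libraries were the highest, with a small gap to Div8neg.

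Nfkb1 had 8.21 and 10.1 mRNAs per cell in Div0, 12.7 and 19.3 in Div1, 13.6 and 17.2 in Div3, 21.5 and 19.6 in Div5, 23.5 and 26.2 in Div8neg, and 16.7 and 14.6 in Div8pos. The Div8neg libraries were above all others, and Div8pos overlapped Div1 and Div3. Nfkb2, the most abundant subunit mRNA in 11 of the 12 libraries, had 11.7 and 14.5 mRNAs per cell in Div0, 27.5 and 23.3 in Div5, 24.1 and 26.0 in Div8neg, and 23.2 and 18.7 in Div8pos. Relb stayed between 3.18 and 7.99 mRNAs per cell in all 12 libraries, with 6.02 and 6.22 in Div8neg and 4.86 and 4.48 in Div8pos.

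Among the inhibitors, Nfkbia was the most abundant of the 10 mRNAs in each group's mean and the one with the largest difference between Div8pos and Div0. It had 13.8 and 16.8 mRNAs per cell in Div0, 22.2 and 32.1 in Div1, 22.7 and 27.7 in Div3, 33.3 and 30.6 in Div5, 34.4 and 37.0 in Div8neg, and 55.6 and 50.8 in Div8pos. The Div8pos libraries were well above the rest. Nfkbie had 8.99 and 11.1 mRNAs per cell in Div0, 15.5 and 22.6 in Div1, 15.2 and 19.3 in Div3, 20.2 and 17.7 in Div5, 13.9 and 15.4 in Div8neg, and 10.7 and 8.62 in Div8pos, so that its Div8pos libraries overlapped those of Div0. Both genes encode IkB proteins, and between Div8neg and Div8pos the libraries of Nfkbia lay higher in Div8pos and those of Nfkbie lower.

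Tnfaip3 had 2.43 and 3.07 mRNAs per cell in Div0 and 7.53 and 7.10 in Div8pos, with the 8 libraries between Div1 and Div8neg at 3.85 to 6.22. Nfkbiz had 1.43 and 1.76 mRNAs per cell in Div0, 4.42 and 5.06 in Div8neg, and 2.04 and 2.47 in Div8pos. Traf1 had 7.86 and 8.68 mRNAs per cell in Div0, 15.2 and 19.6 in Div1, 15.3 and 17.5 in Div3, 22.6 and 18.4 in Div5, 18.2 and 18.2 in Div8neg, and 3.08 and 2.83 in Div8pos. As for Rel, its Div8pos libraries lay below those of Div0 and of every other group.

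**Figure D1:**
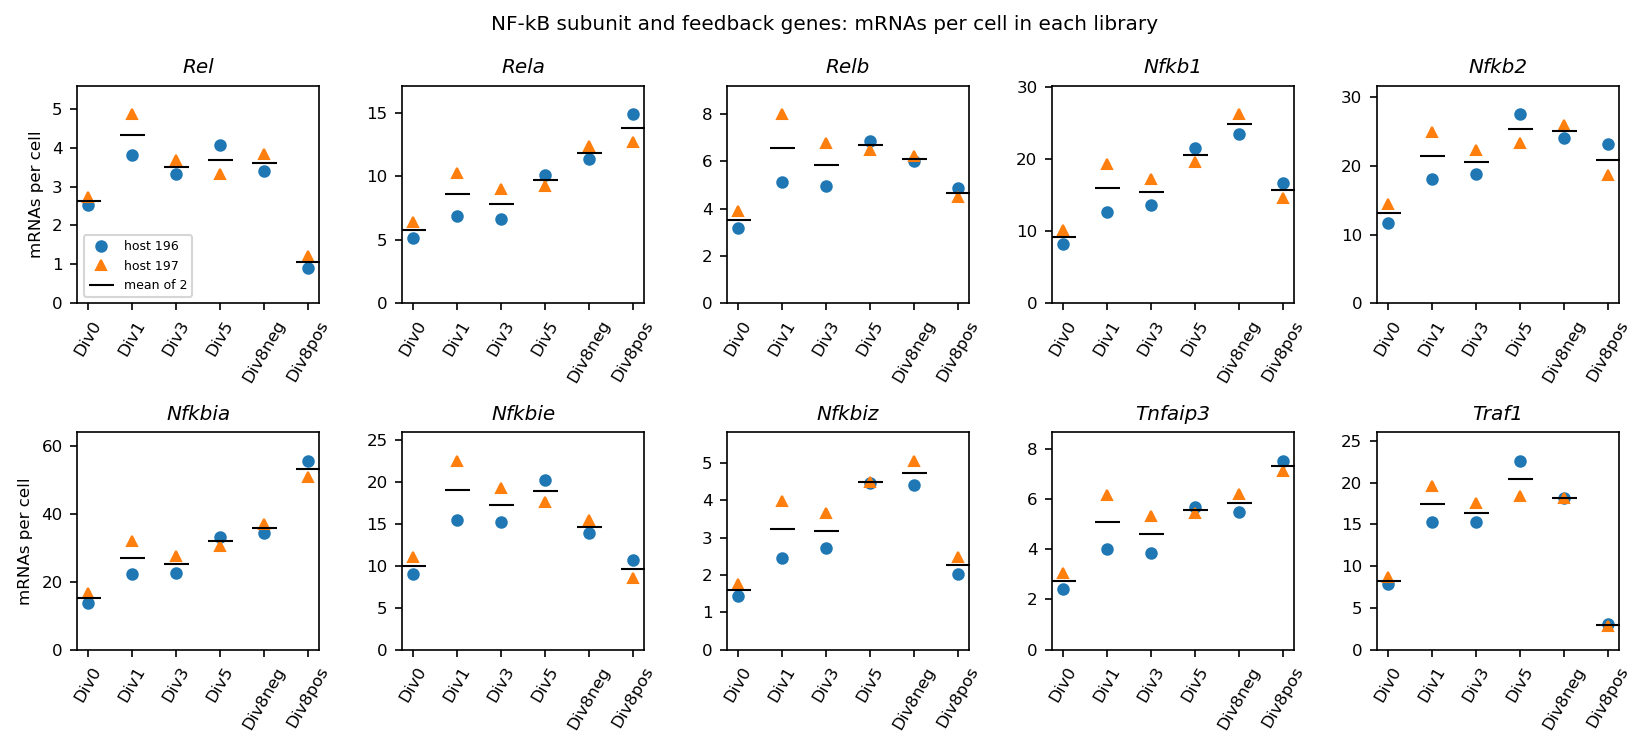
mRNAs per cell (linear axis, from 0) of the 10 genes in each of the 12 libraries, by group along the x axis; circles are host 196, triangles host 197 and lines the mean of 2. Nfkbia reaches 55.6 and 50.8 in Div8pos, whereas Rel (0.917 and 1.23) and Traf1 (3.08 and 2.83) are at their lowest there.

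Summed over the 10 genes, the family amounted to 72.2 ± 9.79 mRNAs per cell in Div0, 129 ± 32.4 in Div1, 120 ± 18.0 in Div3, 147 ± 12.7 in Div5, 151 ± 8.39 in Div8neg and 132 ± 11.3 in Div8pos (SD, n = 2 each). As a share of all mRNA, the order differed. The 10 genes made up 0.237% ± 0.00177 of mRNAs per cell in Div0, 0.251% ± 0.00404 in Div1, 0.247% ± 0.00128 in Div3, 0.206% ± 0.00333 in Div5, 0.150% ± 0.00124 in Div8neg and 0.0808% ± 0.000794 in Div8pos. This share was lowest in Div8pos, whose cells had the most mRNA.

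Div1 against Div0 compares cells after 1 division with undivided cells, both sorted on day 3. Per cell, all 10 genes were higher in Div1 than in Div0 (limma on log2(mRNAs per cell + 0.1), adjusted p between 0.000208 and 0.026), with log2 fold changes of 0.54 (Rela) to 1.06 (Traf1). This is near the background, since 77% of the 12026 genes tested were called higher and the median over all genes was 0.63, against 0.82 for the 10 genes. Relative to all genes, 1 of the 10 was called higher (edgeR's quasi-likelihood test, Benjamini-Hochberg adjusted p under 0.05) and 5.44% of genes were called higher. That gene was Traf1, with 404 and 367 CPM in Div1 and 318 and 295 CPM in Div0, a log2 fold change of 0.33 ± 0.068 (SE) with an adjusted p of 0.00549. Its libraries did not overlap.

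After Traf1 the lowest adjusted p by edgeR in Div1 against Div0 were those of Nfkbie and Rela. Nfkbie had 334 and 343 CPM in Div1 and 295 and 305 CPM in Div0 (log2 fold change 0.17, adjusted p = 0.0508), and Rela had 166 and 175 CPM in Div1 and 188 and 198 CPM in Div0 (log2 fold change -0.18, adjusted p = 0.0663). With the host as a replicate block, 4 of the 10 passed the threshold, Traf1, Nfkbie (adjusted p = 0.0208) and Nfkbiz (adjusted p = 0.0132) higher and Rela (adjusted p = 0.0209) lower, in a fit that called 943 genes higher and 770 lower. The call on Traf1 was lost without the Div0 library of host 197 (adjusted p = 0.0677) or the Div1 library of host 196 (adjusted p = 0.0634). The per-cell calls rested on single libraries too: without the Div0 library of host 196, or without the Div1 library of host 197, all but that on Traf1 were lost. The log2 fold change of Rela was 0.38 without the former and 0.26 without the latter, against 0.54. That of Nfkbiz was 0.80 and 0.61, against 0.94. These refits also called far fewer of all genes, so the loss is not particular to the members. A library's per-cell values share 1 spike-in scale, so an error in it moves all its genes together, which the per-gene p-values do not count.

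The step to Div3 brought no call among the 10 genes, whose log2 fold changes relative to all genes lay between -0.22 (Rel) and 0.09 (Nfkbiz). None was called in Div3 against Div1 by edgeR or by limma, where 3.42% and 0.516% of genes were called. The smallest unadjusted p by edgeR was that of Rel (0.0295, adjusted p = 0.269), the only gene of the 10 under 0.05 unadjusted, with 75.4 and 67.7 CPM in Div3 and 87.5 and 78.8 CPM in Div1. No gene of the 10 was called by DESeq2 either, and per cell none had an unadjusted p under 0.05.

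The first comparison in which most of the family fell was that of Div5 cells. In Div5 against Div3, 8 of the 10 genes were lower and none higher relative to all genes, where 12.4% of all genes were called lower. Nfkb1 (log2 fold change -0.12, adjusted p = 0.0951) and Nfkbiz (-0.04, adjusted p = 0.811) did not pass. Rel had 53.8 and 49.2 CPM in Div5 and 75.4 and 67.7 CPM in Div3, a log2 fold change of -0.47 ± 0.095 (adjusted p = 0.00222). Nfkbie had 251 and 245 CPM in Div5 and 324 and 332 CPM in Div3, a log2 fold change of -0.40 ± 0.053 (adjusted p = 0.000104). In each the 2 groups were apart. The calls on Nfkbie, Rel and Relb held when any library of either group was left out. Each of the calls on Nfkb2, Nfkbia, Rela, Tnfaip3 and Traf1 was lost without at least 1 of the 4 libraries. Where a call was lost, the log2 fold change lay between -0.24 and -0.15, both of Rela. These refits also called fewer of all genes, so the loss is not particular to the members. With the host as a block, Nfkb1 also passed (adjusted p = 0.0449).

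Per cell, none of the 10 was called in Div5 against Div3, in a comparison in which 43.2% of genes were called. The 10 genes had a median log2 fold change of 0.31 per cell, against 0.47 over all genes. The largest was that of Nfkbiz (0.49, adjusted p = 0.0653), the only gene of the 10 with an unadjusted p under 0.05, which passed without the Div3 library of host 197 (adjusted p = 0.0329) and with the host as a block (adjusted p = 0.0493).

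In Div8neg against Div5 all 10 genes fell relative to all genes, where 26.6% of genes were called lower. Nfkbie fell most, with 136 and 139 CPM in Div8neg and 251 and 245 CPM in Div5, a log2 fold change of -0.85 ± 0.055 (adjusted p = 1.38e-08). Traf1 had 219 and 201 CPM in Div8neg and 346 and 314 CPM in Div5 (log2 fold change -0.65 ± 0.069, adjusted p = 2.02e-06). Relb had 79.2 and 75.3 CPM in Div8neg and 115 and 121 CPM in Div5 (log2 fold change -0.61 ± 0.068, adjusted p = 3.06e-06). The smallest change was that of Rela (-0.19, adjusted p = 0.0149), whose call was lost without the Div5 library of host 197 or without either Div8neg library (adjusted p up to 0.0706). Per cell none of the 10 was called or had an unadjusted p under 0.05, where 45.8% of genes were called, and their median log2 fold change was 0.02 against 0.41 over all genes.

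Over the whole span of CD138-negative cells, 9 of the 10 genes were lower in Div8neg than in Div0 relative to all genes and none was higher, where 35.7% of genes were called lower and 35.3% higher. Rel (35.5 and 36.8 CPM in Div8neg, 88.8 and 80.7 CPM in Div0) and Nfkbie (136 and 139 CPM in Div8neg, 295 and 305 CPM in Div0) fell most. Rel was 2.35-fold lower (log2 fold change -1.23 ± 0.097, adjusted p = 1.73e-08) and Nfkbie 2.19-fold lower (-1.13 ± 0.055, adjusted p = 8.02e-11). Relb was 1.84-fold lower with 77.2 ± 2.79 CPM in Div8neg and 142 ± 3.00 CPM in Div0, and Nfkb1 was 1.18-fold lower (log2 fold change -0.24, adjusted p = 0.000542). Nfkbiz did not pass, with 69.2 and 72.9 CPM in Div8neg and 75.1 and 77.8 CPM in Div0 (log2 fold change -0.11, adjusted p = 0.347). A slope of log2 count on the number of divisions over the 10 CD138-negative libraries found the same 9 genes falling, where 32.8% of the 11814 genes tested fell. The slopes ran from -0.161 ± 0.013 per division for Rel to -0.031 ± 0.010 for Nfkb1, and that of Nfkbiz was -0.018 (adjusted p = 0.459). Without both Div0 libraries all 10 fell, Nfkbiz with a slope of -0.05 (adjusted p = 0.0262). Leaving out the last point of the slope moved the calls too. Without both Div8neg libraries 3 of the 10 genes fell, Rel, Rela and Nfkb2, and the slope of Traf1 was 0.01 (adjusted p = 0.85). The share of all genes that fell in either refit is not given here, so neither count can be set against its background. Without the Div8neg library of host 196 or of host 197 the slopes of Nfkb1 (adjusted p up to 0.0947) and Traf1 (adjusted p up to 0.136) no longer passed. Marker lists moved across the same comparison. The B-cell list summed to 6118 and 6001 CPM in Div8neg and 8223 and 8291 CPM in Div0, with all 6 markers lower. The monocyte and macrophage list summed to 149 and 187 CPM in Div8neg and 48.4 and 49.1 CPM in Div0. Of its 7 genes tested, 2 were called higher, Itgam (10.9-fold) and Cd68 (3.1-fold), and 3 lower, with a median log2 fold change of -0.62. The dendritic-cell list summed to 50.5 and 67.4 CPM in Div8neg and 7.88 and 9.18 CPM in Div0. Of its 3 genes tested, 1 was called higher, Itgax (12.3-fold), and none lower. The list of immediate early and handling genes had 13 of 20 genes lower and 2 higher. Their part in the results on the 10 genes was not tested.

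Per cell the same comparison ran the other way. In Div8neg against Div0, 9 of the 10 genes were higher, a count near the background of 88.4%, and their median log2 fold change was 1.05 against 1.41 over all genes. Nfkbiz (1.52, adjusted p = 2.31e-09) and Nfkb1 (1.43, adjusted p = 1.33e-08) rose most. Rel, with 3.62 ± 0.305 mRNAs per cell in Div8neg and 2.64 ± 0.145 in Div0, did not pass (log2 fold change 0.44, adjusted p = 0.0579), and its adjusted p was 0.0494 once the host was a block. The call on Nfkbie (0.55, adjusted p = 0.0198) was lost without the Div0 library of host 196 (adjusted p = 0.18) or the Div8neg library of host 197 (adjusted p = 0.138).

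**Figure D2:**
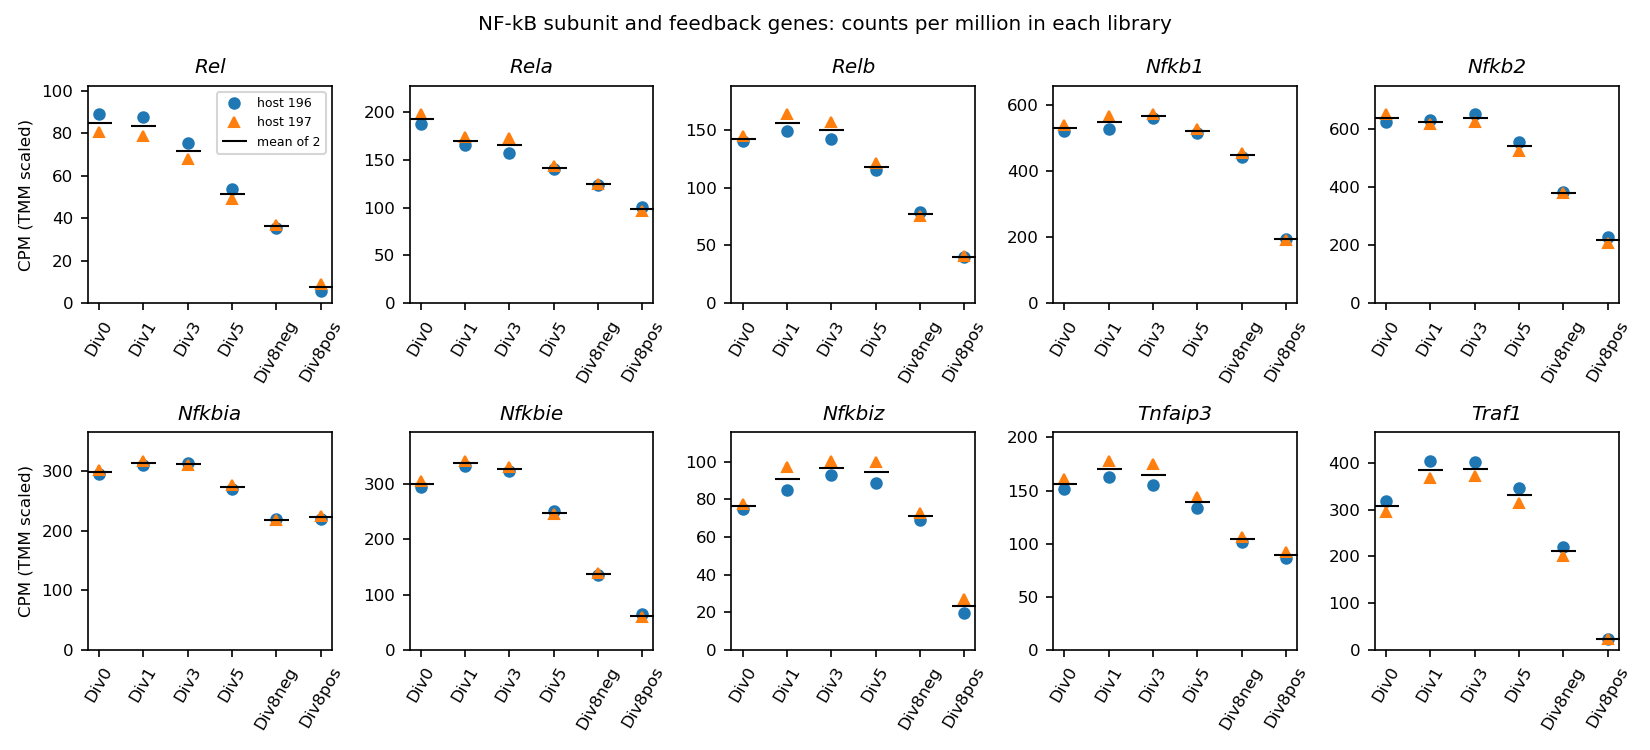
CPM (counts per 1000000, TMM scaled, linear axis from 0) of the 10 genes in each of the 12 libraries, by group along the x axis; circles are host 196, triangles host 197 and lines the mean of 2. Rel has 5.92 and 8.90 CPM in Div8pos, against 88.8 and 80.7 CPM in Div0, while Nfkbia has 220 and 226 CPM in Div8pos, next to 219 and 217 CPM in Div8neg.

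Div8pos and Div8neg, both gated at 8 or more divisions, differed by relative level in all members but Nfkbia. Relative to all genes, 9 of the 10 genes were lower in Div8pos than in Div8neg and none was higher, where 35.4% of all genes were called lower and 36.6% higher. Their median log2 fold change was -1.05, against 0.01 over all genes. Traf1 fell most: it had 23.0 and 23.8 CPM in Div8pos and 219 and 201 CPM in Div8neg, 9-fold lower, with a log2 fold change of -3.17 ± 0.087 (adjusted p = 3.33e-14). Rel had 5.92 and 8.90 CPM in Div8pos and 35.5 and 36.8 CPM in Div8neg, 4.91-fold lower (-2.30 ± 0.141, adjusted p = 5e-10). In both genes every Div8pos library was far under every Div8neg library.

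Nfkbiz had 19.8 and 27.0 CPM in Div8pos and 69.2 and 72.9 CPM in Div8neg (3.05-fold lower, adjusted p = 3.07e-09). Nfkb1 had 195 and 192 CPM in Div8pos and 443 and 455 CPM in Div8neg (2.32-fold lower, adjusted p = 6.23e-12), and Nfkbie had 64.6 and 58.7 CPM in Div8pos and 136 and 139 CPM in Div8neg (2.23-fold lower, adjusted p = 6.05e-11). Relb was 1.92-fold, Nfkb2 1.75-fold, Rela 1.26-fold and Tnfaip3 1.17-fold lower. The call on Tnfaip3 (adjusted p = 0.0131) was lost without the Div8neg library of host 197 (adjusted p = 0.0882) or the Div8pos library of host 196 (adjusted p = 0.119). Nfkbia was the exception: it had 220 and 226 CPM in Div8pos and 219 and 217 CPM in Div8neg, a log2 fold change of 0.03 ± 0.049 (adjusted p = 0.624).

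Per cell, 5 of the 10 genes were lower in Div8pos than in Div8neg, where 16.3% of genes were called lower, and 1 was higher, where 52.1% were. Traf1 was 5.98-fold lower (2.96 ± 0.172 mRNAs per cell in Div8pos and 18.2 ± 0.0155 in Div8neg, adjusted p = 2.79e-19), Rel 3.2-fold lower (1.07 ± 0.218 in Div8pos and 3.62 ± 0.305 in Div8neg, adjusted p = 1.52e-10) and Nfkbiz 2.06-fold lower (adjusted p = 4.05e-05). Nfkb1 (log2 fold change -0.66, adjusted p = 0.0079) and Nfkbie (-0.61, adjusted p = 0.0149) were also lower. Both calls were lost without the Div8neg library of host 197 or the Div8pos library of host 197, with adjusted p up to 0.0891 and 0.166. Nfkbia was higher, with 53.2 ± 3.40 mRNAs per cell in Div8pos and 35.7 ± 1.86 in Div8neg (log2 fold change 0.57 ± 0.230, adjusted p = 0.0225), in both hosts. That call did not survive leaving out any of the 4 libraries (adjusted p between 0.0523 and 0.147), and 0.57 is close to the median of 0.49 over all genes. Relb, Nfkb2, Rela and Tnfaip3 did not pass, with log2 fold changes of -0.38, -0.26, 0.21 and 0.32.

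**Figure D3:**
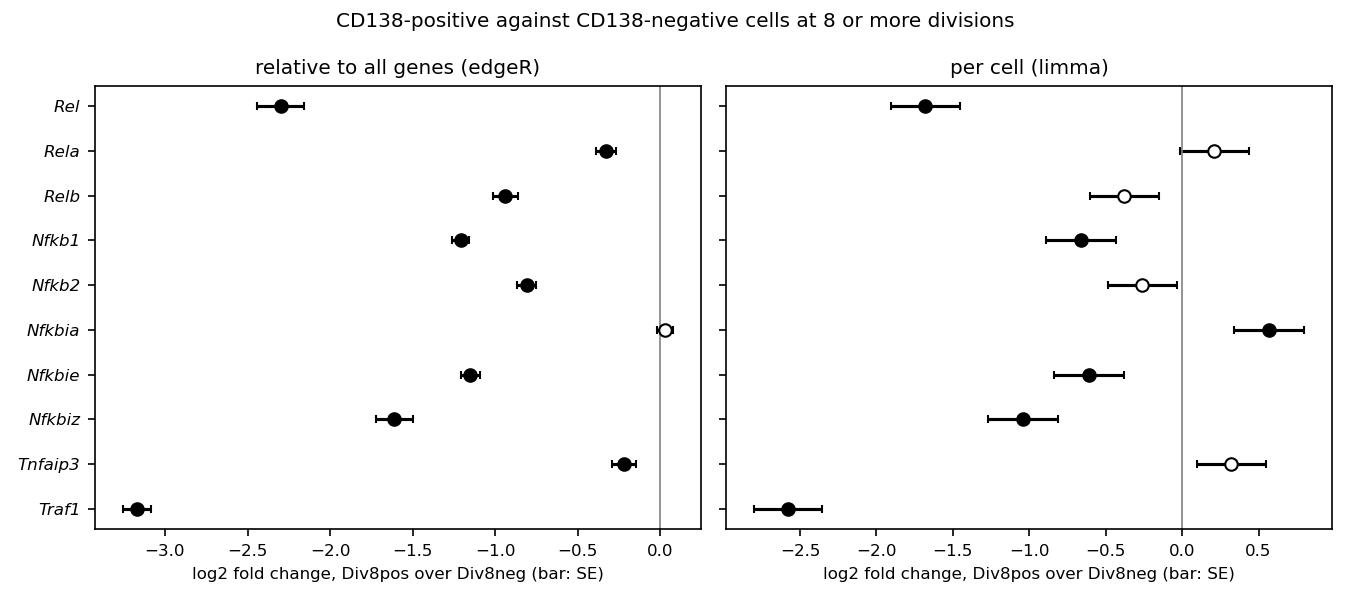
Log2 fold changes of the 10 genes in Div8pos over Div8neg, relative to all genes (left, edgeR) and per cell (right, limma), with bars of 1 SE; filled points have an adjusted p under 0.05 and open points do not. Traf1 (-3.17 and -2.58) and Rel (-2.30 and -1.68) lie farthest below 0 on both scales, and Nfkbia is at 0.03 relative to all genes and 0.57 per cell.

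Genes of other kinds moved across the same contrast. The summed CPM of the 6 B-cell markers were 918 and 904 in Div8pos and 6118 and 6001 in Div8neg, with all 6 markers lower. The 5 plasmablast markers summed to 4796 and 4962 in Div8pos and 652 and 786 in Div8neg, all higher. The list of immediate early genes and genes known to respond to tissue handling summed to 3023 and 3341 in Div8pos and 1816 and 1966 in Div8neg, with 13 of 20 genes tested higher and 7 lower. Their part in the results on the inhibitor genes was not tested. The monocyte and macrophage list summed to 17.0 and 18.5 in Div8pos and 149 and 187 in Div8neg, mainly Itgam and Cd68, while Csf1r and Lyz2 reached at most 8.62 and 10.9 CPM in any group's mean. The dendritic-cell list summed to 2.19 and 2.63 in Div8pos and 50.5 and 67.4 in Div8neg, mainly Itgax. The neutrophil list summed to 1.89 to 6.52 in the libraries of host 196 and 3.99 to 49.02 in those of host 197. The part of these lists in the results on the 10 genes was not tested.

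In the comparison over the full distance, Div8pos against Div0, all 10 genes were lower relative to all genes, where 42.2% of genes were called lower. Traf1 (23.0 and 23.8 CPM in Div8pos, 318 and 295 CPM in Div0) was 13.1-fold lower (log2 fold change -3.71 ± 0.087, adjusted p = 2.37e-15) and Rel (5.92 and 8.90 CPM in Div8pos, 88.8 and 80.7 CPM in Div0) 11.5-fold lower (-3.53 ± 0.129, adjusted p = 3.49e-13). Nfkbia changed least, 1.34-fold lower with 220 and 226 CPM in Div8pos and 296 and 303 CPM in Div0. Div8pos against Div8neg uses the same Div8pos libraries and Div8neg against Div0 the same Div0 libraries, so these values are not independent of those above.

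Per cell, 6 of the 10 genes were higher in Div8pos than in Div0, where 82.5% of genes were called higher, and 2 were lower, where 6.65% were. The median log2 fold change of the 10 genes was 0.57, against 1.84 over all genes. Even the largest rise, that of Nfkbia (1.80), was not above the median over all genes. Nfkbia was 3.47-fold higher (adjusted p = 6.61e-12), Tnfaip3 2.62-fold (adjusted p = 2.07e-08) and Rela 2.37-fold (adjusted p = 3.52e-07) higher, followed by Nfkb1, Nfkb2 and Nfkbiz. Rel had 0.917 and 1.23 mRNAs per cell in Div8pos and 2.54 and 2.74 in Div0 (2.36-fold lower, adjusted p = 3.02e-07), and Traf1 had 3.08 and 2.83 mRNAs per cell in Div8pos and 7.86 and 8.68 in Div0 (2.74-fold lower, adjusted p = 3.62e-09). Nfkbie (log2 fold change -0.06, adjusted p = 0.818) and Relb (0.40, adjusted p = 0.0886) did not pass. The call on Nfkb2 was lost without the Div0 library of host 196 (adjusted p = 0.0826) or the Div8pos library of host 196 (adjusted p = 0.0941), and that on Nfkbiz without the Div0 library of host 196 (adjusted p = 0.273) or the Div8pos library of host 197 (adjusted p = 0.263).

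The mix of subunit mRNAs within a library does not depend on depth or on the spike-ins. Of the summed mRNA of the 5 subunit genes, Rel made up 8.25% and 7.27% in Div0, 8.20% and 7.22% in Div1, 7.01% and 6.24% in Div3, 5.79% and 5.36% in Div5, 4.98% and 5.13% in Div8neg, and 1.51% and 2.37% in Div8pos. The share of Rela was 16.7% and 17.0% in Div0, 14.8% to 15.3% in Div1, 14.0% to 15.3% in Div3, 14.5% to 14.9% in Div5, 16.6% in each library of Div8neg cells, and 24.6% in each of CD138-positive cells. Nfkb1 had its largest share in Div8neg, with 26.7% and 26.9% in Div0, 34.4% and 35.1% in Div8neg, and 27.5% and 28.3% in Div8pos. Nfkb2 held 34.9% to 39.8% of subunit mRNA and Relb 8.03% to 11.9% over all libraries. The shares of Rel were thus lower and those of Rela higher in both Div8pos libraries than in any other library. These shares are a description and were not tested.

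Among the inhibitor mRNAs, the balance of Nfkbia and Nfkbie differed most in Div8pos. Nfkbia and Nfkbie together had 2.10 and 2.14 mRNAs for each mRNA of Rel, Rela and Relb in Div0, 2.38 and 2.36 in Div1, 2.55 and 2.42 in Div3, 2.54 and 2.53 in Div5, 2.32 and 2.34 in Div8neg, and 3.21 and 3.23 in Div8pos. Div8pos stood above all other groups, whose libraries lay within 2.10 to 2.55. From counts without length, the ratio in Div8pos was 1.36 times that in Div0, against 1.52 times from mRNAs per cell. Nfkbia alone had 1.54 and 1.52 mRNAs for each Nfkbie mRNA in Div0, 1.43 and 1.42 in Div1, 1.49 and 1.44 in Div3, 1.65 and 1.73 in Div5, 2.48 and 2.40 in Div8neg, and 5.21 and 5.90 in Div8pos. Rela had 2.02 and 2.34 mRNAs for each Rel mRNA in Div0, 3.34 and 3.23 in Div8neg, and 16.2 and 10.4 in Div8pos. The ratios of Nfkbia to Nfkbie and of Rela to Rel were chosen after their values were seen. The precursor mRNAs Nfkb1 and Nfkb2 had 1.84 and 1.89 mRNAs for each mRNA of Rel, Rela and Relb in Div0, 2.29 and 2.33 in Div8neg, and 1.93 and 1.81 in Div8pos.

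**Figure D4:**
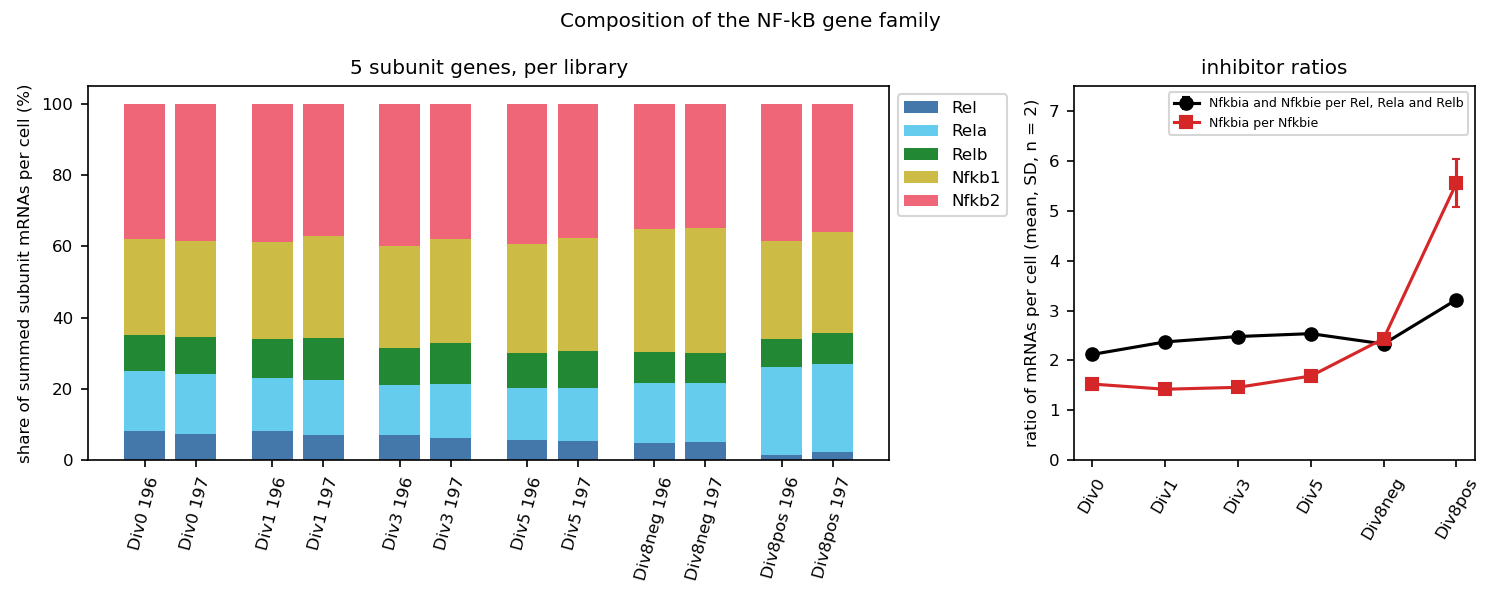
Left, the share (%) of each subunit gene in the summed subunit mRNAs per cell of each library. Right, ratios of mRNAs per cell by group, as the mean with SD of 2 libraries; Nfkbia per Nfkbie is 5.56 in Div8pos and 2.44 in Div8neg, and Nfkbia and Nfkbie per Rel, Rela and Relb is 3.22 in Div8pos and 2.33 in Div8neg.

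Other genes of the pathway were read from lists, beginning with the IkB family and other NF-kB regulators (Nkrf, Commd1 and Nkiras1 among them). Beside their counts stand the calls over all genes: 36.6% higher and 35.4% lower in Div8pos against Div8neg, and 35.3% higher and 35.7% lower in Div8neg against Div0. Fold changes and CPM are relative to all genes, and per-cell counts follow where given; per cell 52.1% of genes were higher and 16.3% lower in Div8pos against Div8neg, and 88.4% higher in Div8neg against Div0. Of 9 such genes tested, 3 were higher and 4 lower in Div8pos than in Div8neg relative to all genes. The nuclear IkB genes Bcl3 and Nfkbid, relatives of Nfkbiz, were 3.28-fold and 2.84-fold lower, with 37.6 ± 1.97 CPM in Div8pos and 124 ± 9.33 CPM in Div8neg for Bcl3. Nfkbib, which encodes the third cytoplasmic inhibitor IkB-beta, was 1.41-fold higher with 104 ± 0.178 CPM in Div8pos and 74.0 ± 2.73 CPM in Div8neg (adjusted p = 3.45e-05), as was Nkrf, a repressing factor of NF-kB (1.41-fold). In Div8neg against Div0, 3 of the 9 were higher and 3 lower, with Commd1 1.52-fold higher and Nkiras1 1.67-fold lower. Per cell, 5 of the 9 were higher and 3 lower in Div8pos than in Div8neg, and all 9, Nkiras1 included (log2 fold change 0.71), were higher in Div8neg than in Div0.

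Of 13 genes of the IKK complex and its kinases, 3 were higher and 9 lower in Div8pos than in Div8neg. Ikbke, an IKK-related kinase, had 7.93 ± 2.50 CPM in Div8pos and 48.1 ± 1.02 CPM in Div8neg (6.11-fold lower, adjusted p = 6.61e-11). Map3k14, which encodes NIK, the kinase that drives p100 processing, had 23.7 ± 2.06 CPM in Div8pos and 59.0 ± 3.05 CPM in Div8neg (2.49-fold lower), and it was also 2.45-fold lower in Div8neg than in Div0. Chuk, which encodes IKK-alpha, was 1.24-fold higher in Div8pos than in Div8neg (adjusted p = 0.000516), whereas Ikbkb, for IKK-beta, was 1.96-fold lower in Div8neg than in Div0. In that comparison 9 of the 13 genes were lower and none higher relative to all genes, whereas per cell 12 were higher and none lower, Ikbkb among them (log2 fold change 0.68, adjusted p = 0.00362). Per cell, 4 of the 13 were higher and 3 lower in Div8pos than in Div8neg.

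On the LPS side, 10 of 16 genes of the LPS receptor and its adaptors were lower in Div8pos than in Div8neg and 3 were higher. Ly86, the partner of the TLR4 homologue CD180, was 7.70-fold lower, and Irak3, an inhibitor of the IRAK kinases, 5.41-fold lower, whereas the adaptor gene Tirap was 2.37-fold higher (79.0 ± 6.42 CPM in Div8pos and 33.3 ± 1.72 CPM in Div8neg). In Div8neg against Div0, Ticam1 and Ticam2, for adaptors of TLR signalling, were 1.52-fold and 1.49-fold higher, and Sigirr and Irak2 2.53-fold and 2.38-fold lower, with 6 of the 16 higher and 9 lower. Per cell, 5 of the 16 were higher and 7 lower in Div8pos than in Div8neg, and 13 were higher and none lower in Div8neg than in Div0. The list of TRAF and cIAP genes other than Traf1 also held Traip, for a TRAF-interacting protein. Of its 9 genes, 4 were lower and 3, Traip among them (1.33-fold), higher in Div8pos than in Div8neg. Traf5 was 2.71-fold and Birc3, for cIAP2, 2.01-fold lower, and Traf4 was 1.44-fold higher. Per cell, 5 of the 9 were higher and 1 lower, and Birc3 did not pass (log2 fold change -0.46, adjusted p = 0.0609). In Div8neg against Div0, 8 of the 9 were lower and 1, Traip (2.13-fold), higher relative to all genes, and all 9 were higher per cell. Of 14 tested partners of ubiquitin editing, 7 were lower and 4 higher, with Rbck1 and Sharpin, members of the linear ubiquitin ligase complex, 2.14-fold and 1.66-fold lower and Itch 1.34-fold higher. Per cell, 5 of the 14 were higher and 2 lower, and Sharpin did not pass (log2 fold change -0.18, adjusted p = 0.474). Against Div0, 2 of the 14 were higher in Div8neg and 10 lower relative to all genes, and 13 were higher and none lower per cell.

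Among 8 tested receptors that signal to NF-kB, 4 were lower and 2 higher in Div8pos than in Div8neg. Cd40 had 23.7 ± 1.83 CPM in Div8pos and 97.9 ± 4.81 CPM in Div8neg (4.13-fold lower), and Tnfrsf13c, for the BAFF receptor, was 1.91-fold lower. Tnfrsf13b, for TACI, was 1.40-fold higher (166 ± 3.33 CPM in Div8pos and 118 ± 4.96 CPM in Div8neg). Per cell, 2 of the 8 were higher and 1 lower. Of the 8, 2 were higher in Div8neg than in Div0 and 4 lower relative to all genes, and 7 were higher and 1 lower per cell. Of 29 tested genes reported as NF-kB targets, 18 were lower and 7 higher in Div8pos than in Div8neg. Lta, for lymphotoxin alpha, was 53.0-fold lower (1.16 ± 0.276 CPM in Div8pos and 62.5 ± 9.27 CPM in Div8neg). Cd86, a costimulatory ligand, was 35.9-fold lower (1.22 ± 0.142 CPM in Div8pos and 44.05 ± 2.70 CPM in Div8neg). The folds of Lta and Cd86 rest on low levels in Div8pos. Bcl2l1, for the survival protein Bcl-xL, was 5.31-fold higher (102 ± 9.64 CPM in Div8pos and 19.1 ± 1.81 CPM in Div8neg), and Irf4, also on the plasmablast marker list, 4.96-fold higher. In Div8neg against Div0, 8 were higher and 13 lower, with Il10 23.3-fold and Cd80 10.3-fold higher and Cd83 2.92-fold and Irf1 2.75-fold lower. The folds of Il10 and Cd80 rest on low levels in Div0. Il10 had 18.8 ± 2.56 CPM in Div8neg and 0.806 ± 0.191 CPM in Div0. Cd80 had 44.0 ± 1.455 CPM in Div8neg and 4.28 ± 0.475 CPM in Div0. Per cell, 10 of the 29 were higher and 14 lower in Div8pos than in Div8neg. Between Div8neg and Div0, 26 were higher in Div8neg and none lower per cell, and Cd83 (log2 fold change 0.14, adjusted p = 0.558) and Irf1 (0.22, adjusted p = 0.343) did not pass.

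Over the 12 libraries, the genes whose log2 CPM ran most like that of Traf1, among 8779 genes of at least 10 CPM on average, were Sesn3, Kmo and Lasp1 (Pearson r = 0.999 each). For Rel they were 2810021J22Rik, Hsd17b11 and Dnajb5 (r = 0.997 each), for Nfkbie Zer1 (0.999), Dyrk1b and Tpp1 (0.998 each), and for Nfkbiz Nphp4 (0.998), Ikbke (0.996) and Ifi27l2a (0.994). Within the family, Relb and Nfkbie had an r of 1.00 to 2 decimals and Rel and Nfkbia an r of 0.81. The libraries fall into 6 groups and the largest step is that to Div8pos, so these values of r describe a shared pattern of groups and carry no test.

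Overlapping genes are annotated for 3 of the members. In RefSeq, Nfkb2 overlaps Psd and 4833438C02Rik, Nfkb1 overlaps Gm46827, and Traf1 overlaps Gm52552. Of these, a count is given here for Psd, which reached 1373 counts in a library. Whether the counting used the strand is not given in the sources used here, so part of the counts of Nfkb2 may be shared, and for Nfkb1 and Traf1 this was not measured.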

How the data were processed

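RNA-seq was carried out on 12 libraries (6 groups, 2 hosts) with a stranded mRNA kit, 11 PCR cycles and 50 bp paired-end reads, per the labels' protocols. The deposited counts are raw read counts per gene over exons of UCSC mm9 KnownGenes and read counts per spike-in, per the deposited readme; the aligner and counter, not given in the sources used here, are unknown, and the submitters' processing notes name Picard, R 3.2.2 and mm9. The authors also deposited FPKM values and a per-cell signal, mRNAs per cell, which a check of the values found to be FPKM times 1 factor per library, the spike-in molecules added per cell over their FPKM.

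Counts were tested with edgeR 4.0.16 (R 4.3.3): TMM factors, filterByExpr (12026 genes), a quasi-likelihood fit over all 12 libraries and Benjamini-Hochberg adjustment over all genes tested, called at an adjusted p under 0.05. A slope on the number of divisions was fitted without Div8pos (11814 genes). Per-cell values were tested on the same genes with limma 3.58.1 (trend) as log2(mRNAs per cell + 0.1), which understates the change of low genes. Both were also run on simulated counts. That simulation held no shared error in the spike-in scale, so it cannot show how the per-cell test fares under such an error. CPM are TMM scaled, except sums over marker lists, which use plain library totals. The 90 rows without a symbol, 0.0498% to 0.0943% of counts, were left out. Groups hold 2 libraries, from the same 2 hosts throughout, and p-values do not rest on the spread within the groups compared alone. The edgeR fit took its spread from all 12 libraries. Per cell, the SE of each member lay between 0.223 and 0.230 in every comparison, so the spread used was nearly the same for all members. Small p-values are therefore no measure of how far the 2 hosts varied in a gene. It is not stated whether the hosts received cells of separate donors. Replicate libraries differed by more than counting noise (chi-square per degree of freedom 2.48 to 4.38).

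Hosts were left out of the main model, and a fit with the host as a replicate block was an alternative. Libraries with 1 host number come from the same mouse, per the labels, so the numbers pair the samples; over 15 pairs of groups the deviations of same-numbered libraries correlated at -0.0109 to 0.4 (median 0.172). Other alternatives were DESeq2 1.42.0, no TMM factors, other filters and pseudocounts, spike-in library sizes, 2-group fits and leaving out each library. From each pathway list, up to 2 genes called in each direction with the largest log2 fold change were named for Div8pos against Div8neg and for Div8neg against Div0, if the higher group had 10 CPM or more and both hosts had 1 sign; the text gives part of these, and 1 list is not reported here. For at most 4 members with the widest range, the 3 genes of highest r were named. The members and lists were chosen with earlier results of these data known.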

Additional observations from a re-analysis of the deposited data

How the results depend on the processing

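Of 630 log2 fold changes of single genes relative to all genes, over the alternatives, 607 kept their direction and side of the threshold, 18 lost the call and 5 gained one; per cell 590 of 630 did, 35 lost the call and 5 gained one; of 140 slopes 129 did. DESeq2, library totals without TMM factors and fits of only the 2 groups compared, run on counts relative to all genes, kept those 7 counts of members within 1.5 times, and so did the slope without TMM factors. In Div1 against Div0, 2 members were called relative to all genes without a filter on low counts and 4 with the host as a replicate block, against 1. Per cell in Div5 against Div3, 1 member was called with the replicate block, against 0. The block changed no other count of members by over 1.5 times. Over all genes it called 943 higher and 770 lower in Div1 against Div0, where 654 and 470 were called without it, and 385 and 370 in Div3 against Div1, where 229 and 182 were; per cell in Div3 against Div1 it called 45 and 72, where 25 and 37 were. Without both Div8neg libraries 3 members had a falling slope, and the slope of Traf1 turned to 0.01. That setting ends the range at 5 divisions, and the share of all genes falling in it is not given here. From counts without length, the ratio of Nfkbia and Nfkbie to Rel, Rela and Relb was 1.36 times as high in Div8pos as in Div0, against 1.52. Leaving out 1 library of either group gave 0 to 1 members called in Div1 against Div0, 5 to 6 in Div5 against Div3, 9 to 10 in Div8neg against Div5 and 8 to 9 in Div8pos against Div8neg relative to all genes, and 7 to 9 along the slope. Per cell it gave 1 to 10 in Div1 against Div0, 0 to 1 in Div5 against Div3, 3 to 5 in Div8pos against Div8neg, 8 to 9 in Div8neg against Div0 and 6 to 8 in Div8pos against Div0. Over all genes, leaving out 1 library gave 838 to 10259 genes called per cell in Div1 against Div0 and 304 to 5651 in Div5 against Div3. In each comparison of 2 groups relative to all genes, leaving out 1 library also lowered the number of all genes called. Per cell it did the same in Div8neg against Div5, Div8pos against Div8neg, Div8neg against Div0 and Div8pos against Div0. Along the slope that number rose or fell with the library left out. With 1 library left in a group, that library is assumed to vary like the others. The causes were not tested.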
